A study of Mus musculus with 24 samples.

Results

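Cytochrome P450 4A (Cyp4a) genes and a set of genes linked to the nuclear receptor PPARα were followed in livers of mice given Cre recombinase with floxed alleles of the transcription factor gene Cebpa, the pseudokinase gene Trib1, or both. The 10 genes described are Cyp4a10, Cyp4a12a, Cyp4a12b, Cyp4a14, Cyp4a31, Cyp4a32, Ppara, Ehhadh, Acot1 and Acaa1b. They were taken by gene symbol from a table of 54432 genes, and all 10 passed the filter on low values (mean of 1 or more), as did 19810 genes in all. RNA came from whole liver of 24 male C57BL/6 mice, 6 per group in cohorts of 3. The groups are DKO, with Trib1 and Cebpa both floxed; Cebpa-KO, with Cebpa floxed; Trib1-KO, with Trib1 floxed; and WT, with neither floxed. All 24 mice, WT included, were injected intraperitoneally with AAV-Cre, a viral vector for the recombinase that removes floxed DNA, at 20 to 21 weeks of age. They were kept on chow, and the liver was collected at midday, 4 weeks after injection and 4 h into a fast. The promoter that drives Cre is not given in the sources used here, and whole liver also holds cells other than hepatocytes.

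PPARα is a lipid-activated nuclear receptor that binds DNA as a heterodimer with a retinoid X receptor and drives fatty acid oxidation in the fasting liver. Mouse Cyp4a10 and Cyp4a14, which hydroxylate fatty acids at the omega end, are among its most strongly induced targets. Ehhadh and Acaa1b encode enzymes of peroxisomal β-oxidation, and Acot1 encodes a cytosolic thioesterase that releases fatty acids from coenzyme A. Cyp4a12a is known as a male-predominant, androgen-dependent member of the same family that hydroxylates arachidonic acid. C/EBPα is a transcription factor of differentiated hepatocytes, and TRIB1 presents it to the ubiquitin ligase COP1 for degradation.

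The 6 Cyp4a genes lie in a cluster on chromosome 4 (GRCm38), and how alike they are limits how well reads can be told apart. Cyp4a12a spans 115299046 to 115332815, Cyp4a12b 115411624 to 115439034, Cyp4a14 115486200 to 115496142, Cyp4a10 115518264 to 115533649, Cyp4a31 115563649 to 115579015 and Cyp4a32 115600969 to 115621602. Cyp4a14 is on the minus strand and the other 5 are on the plus strand. The first 90 bases of each coding sequence are shown from the start codon, with capitals marking the bases that differ from Cyp4a10 (for Cyp4a12b, from Cyp4a12a, from which it does not differ in this stretch).
Cyp4a10: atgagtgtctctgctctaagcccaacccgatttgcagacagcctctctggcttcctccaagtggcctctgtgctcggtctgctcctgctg
Cyp4a32: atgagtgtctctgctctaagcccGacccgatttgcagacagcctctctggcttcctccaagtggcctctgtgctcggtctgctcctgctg
Cyp4a31: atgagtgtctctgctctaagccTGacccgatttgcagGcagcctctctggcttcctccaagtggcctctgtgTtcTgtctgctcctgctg
Cyp4a12a: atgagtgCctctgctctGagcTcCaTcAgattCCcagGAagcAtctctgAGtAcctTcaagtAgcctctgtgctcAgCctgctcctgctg
Cyp4a12b: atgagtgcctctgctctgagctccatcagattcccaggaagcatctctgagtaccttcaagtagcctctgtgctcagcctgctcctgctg
Cyp4a14: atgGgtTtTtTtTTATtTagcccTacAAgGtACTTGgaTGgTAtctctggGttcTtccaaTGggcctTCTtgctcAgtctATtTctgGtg
Over these bases Cyp4a32 differs from Cyp4a10 at 1 position, Cyp4a31 at 5, Cyp4a12a at 18 and Cyp4a14 at 34. Over the whole coding sequence, Cyp4a12a and Cyp4a12b are 98.5% identical, Cyp4a10 is 97.2% identical to Cyp4a32 and 96.6% to Cyp4a31, and Cyp4a10 and Cyp4a14 are 75.3% identical. Of the 31-base words in the transcript, 97.9% are unique to the gene in Cyp4a14, 67.0% in Cyp4a31, 54.5% in Cyp4a10, 37.8% in Cyp4a12a, 37.1% in Cyp4a12b and 34.7% in Cyp4a32. Values of single genes within the pair Cyp4a12a and Cyp4a12b, and within the trio Cyp4a10, Cyp4a31 and Cyp4a32, are therefore uncertain where reads were split between copies, and sums over the pair and over the trio are given as well. Among the other members, 29.2% of the words of Acot1 are shared with Acot2 and 45.7% of those of Acaa1b with Acaa1a, while Ppara (100.0%) and Ehhadh (99.8%) are close to unique. These lie at 84009490 to 84018371 on chromosome 12 (Acot1, plus strand), 119148023 to 119157093 on chromosome 9 (Acaa1b, minus strand), 85734983 to 85802819 on chromosome 15 (Ppara, plus strand) and 21761287 to 21787807 on chromosome 16 (Ehhadh, minus strand).

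Promoter sequence from RefSeq (GRCm38.p6) was at hand for 5 of the 10 members, namely Cyp4a32, Acaa1b, Acot1, Ppara and Ehhadh, and is described because Cebpa was floxed in 2 of the 4 groups. The C/EBP core TTGCNNAA, searched on both strands, was found in the 250 bases before the start of 1 of these 5, Acot1, and in 9.56% of 32851 promoters of the same length. The Acot1 stretch, at chr12:84009252-84009501 on the plus strand, holds the core at 143 to 136 and again at 128 to 121 bases before the RefSeq start, shown in capitals.
Acot1: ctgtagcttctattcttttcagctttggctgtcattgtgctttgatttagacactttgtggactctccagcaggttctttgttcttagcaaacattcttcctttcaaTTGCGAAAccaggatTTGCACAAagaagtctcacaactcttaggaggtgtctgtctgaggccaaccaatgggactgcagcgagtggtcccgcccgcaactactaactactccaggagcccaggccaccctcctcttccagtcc
The direct repeat bound by PPARα, spelled as AGGTCA, any 1 base and AGGTCA again, was in none of the 5 stretches on either strand and in 0.0335% of all promoters. A looser form, with AGGNCA in place of both AGGTCA, was in none of the 5 and in 0.338% of all promoters. A match in these letters does not show that a factor binds there, and no match says nothing about the factor.

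Library totals were 23385900 to 27190700 normalized estimated counts, with 19831 to 21189 genes above 0 in each. Cebpa averaged 82.4 ± 18.1 in DKO, 82.2 ± 17.5 in Cebpa-KO, 2668 ± 359 in Trib1-KO and 6019 ± 1057 in WT (mean ± SD, n = 6 each). Trib1 averaged 732 ± 259 in DKO, 333 ± 158 in Cebpa-KO, 4237 ± 358 in Trib1-KO and 1224 ± 204 in WT, so it went against the label in Trib1-KO, with a difference from WT of 1.81 ± 0.24 log2 units (± SE; limma adjusted p = 3.5e-06). Trib1 was also higher in DKO than in Cebpa-KO, by 1.13 ± 0.24 (limma adjusted p = 0.0463), with overlap. There is 1 value per gene, which cannot show whether the floxed part of Trib1 was lost, so both groups with a floxed Trib1 are named by their labels, Trib1-KO and DKO. Major urinary protein (Mup) genes took 1.43 to 4.54% of the total in the libraries labelled DKO, 1.28 to 2.23% in Cebpa-KO, 21.0 to 26.7% in the libraries labelled Trib1-KO and 2.93 to 8.73% in WT. When libraries were scaled to totals without Mup genes, called the Mup-free scaling, the median of all genes tested shifted by 0.228 log2 units in the libraries labelled Trib1-KO against WT, by -0.261 in those labelled DKO against Trib1-KO, by 0.266 in those labelled Trib1-KO against Cebpa-KO, and by less than 0.04 for DKO or Cebpa-KO against WT. Of 10 hepatocyte markers none was at 0 in any group, and 6 fell and none rose in the libraries labelled Trib1-KO against WT, beside 10.9% of all genes lower. In Cebpa-KO 2 rose and 4 fell, beside 4.6% of all genes higher and 5.22% lower. In the libraries labelled DKO 1 rose and 3 fell, beside 2.84% of all genes higher and 3.25% lower. With quantile normalization 3 fell in Cebpa-KO and 2 in DKO, beside 4.93% and 3.12% of all genes lower. With the Mup-free scaling none rose in DKO, beside 2.1% of all genes higher. The summed level of the hepatocyte markers was 2665830 to 3332580 in the libraries labelled DKO, 2743040 to 3607770 in Cebpa-KO, 932453 to 1086200 in the libraries labelled Trib1-KO and 2090650 to 3039700 in WT. This sum leans on Alb, which averaged 1504600 over all libraries, beside 289821 for Trf, the next highest. Of 12 Kupffer cell and macrophage markers 10 were higher in the libraries labelled Trib1-KO than in WT, beside 11.8% of all genes. Their summed levels were 18896 to 22138 against 9915 to 17988. Limma called none of the 12 in DKO or Cebpa-KO against WT, beside 6.09% and 9.82% of all genes called in either direction. Of the 12, 4 in DKO and 2 in Cebpa-KO had an unadjusted p under 0.05. Sums of 12 cholangiocyte markers were 3066 to 6084 in the libraries labelled DKO, 3176 to 8513 in Cebpa-KO, 1120 to 1447 in the libraries labelled Trib1-KO and 1654 to 2315 in WT. Sums of 8 fat and muscle markers were 0.723 to 51.3 in the libraries labelled DKO, 13.8 to 61.1 in Cebpa-KO, 6.55 to 16.3 in those labelled Trib1-KO and 0 to 69.9 in WT, with Lep and Mb at 0 in all 24 livers. The part of these cell types and of Mup genes in the results below was not tested, and in whole liver, fewer cells of a type and less RNA per cell cannot be told apart.

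The fatty acid hydroxylase genes Cyp4a10, Cyp4a14 and Cyp4a31 were much lower in the libraries labelled Trib1-KO than in WT, while Cyp4a12a and Cyp4a12b were much lower in those labelled DKO and in Cebpa-KO. In the libraries labelled Trib1-KO against WT, 4 of the 10 members fell, none rose and 6 did not pass the test, where 22.7% of the 19810 genes tested were called in either direction, 11.8% higher and 10.9% lower. In Cebpa-KO against WT 2 of 10 fell and none rose, where 9.82% of genes were called, 4.6% higher and 5.22% lower. In the libraries labelled DKO against WT 3 of 10 fell and none rose, where 6.09% of genes were called, 2.84% higher and 3.25% lower. The libraries labelled DKO had no call against Cebpa-KO in any of the 10 members, where 0.202% of genes were called, 0.0808% higher and 0.121% lower. Against the libraries labelled Trib1-KO, those labelled DKO had 4 members higher and 3 lower, where 30.3% of genes were called, 14.6% higher and 15.7% lower, and with the Mup-free scaling the split was 3 higher and 4 lower, where 7.31% of genes were called higher and 32.0% lower. The libraries labelled Trib1-KO had 3 members higher and 5 lower than Cebpa-KO, where 32.7% of genes were called, 16.9% higher and 15.8% lower. A gene was called at a limma adjusted p under 0.05 (Benjamini-Hochberg over all genes tested), and fold changes are log2 of the value plus 1, given with the SE after ±. The median member differed by -0.51 log2 units in the libraries labelled Trib1-KO against WT, beside 0.01 over all genes tested, by -0.13 in Cebpa-KO, also beside 0.01, and by -0.52 in the libraries labelled DKO, beside 0.00.

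**Figure D1:**
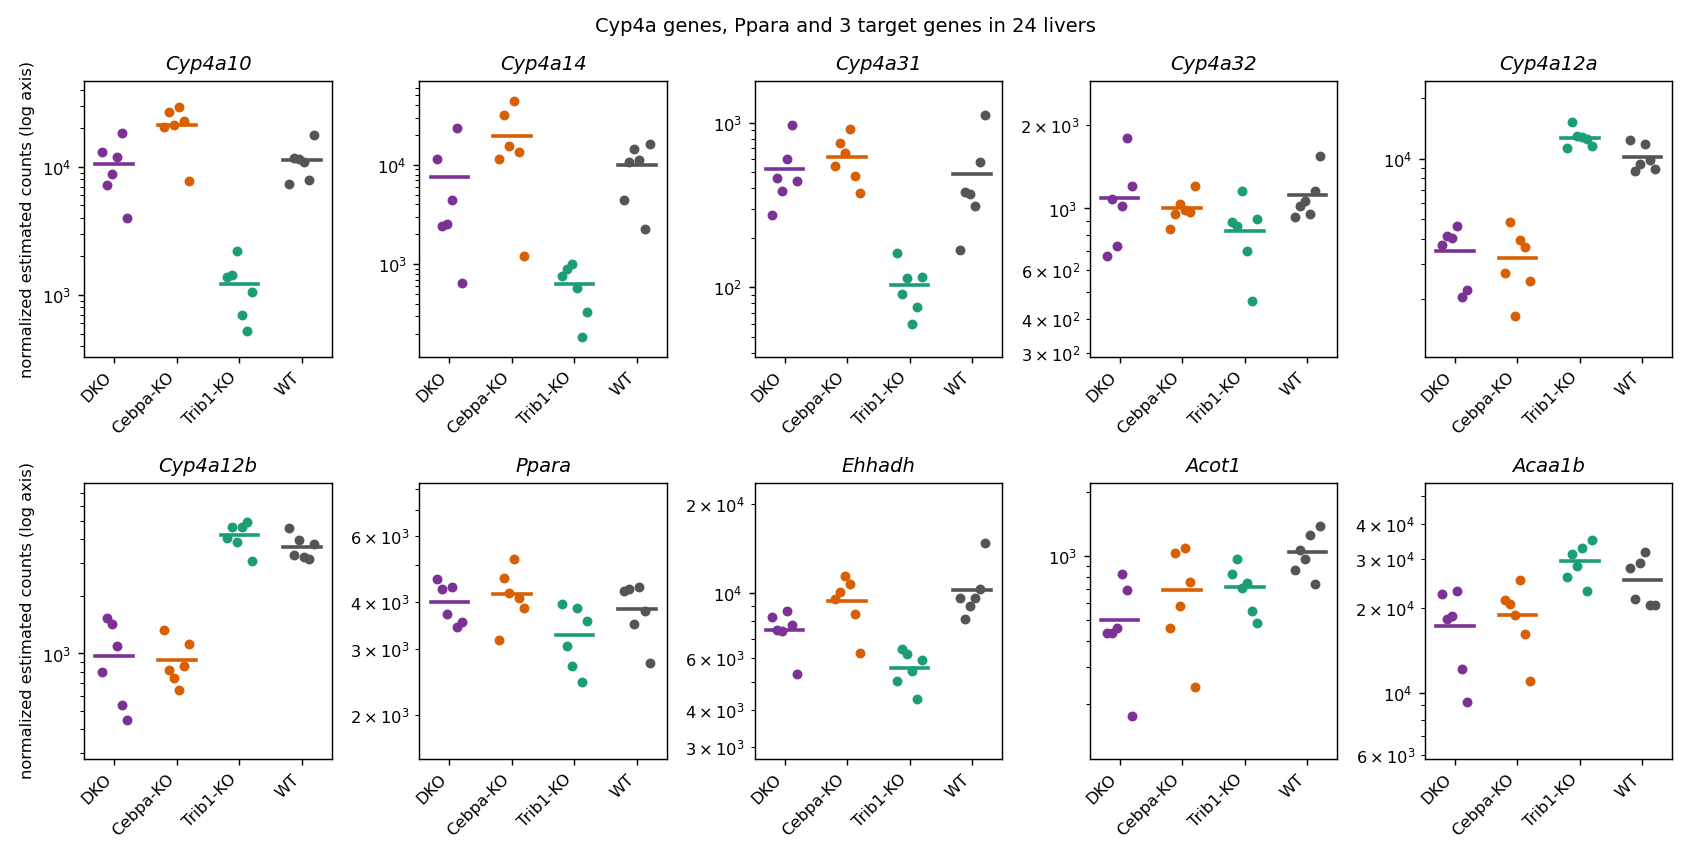
Normalized estimated counts of the 10 genes in each of 24 livers, on log axes, with 1 point per liver and a bar at the mean of 6. Cyp4a10, Cyp4a31 and Cyp4a14 sit lowest in the libraries labelled Trib1-KO, and Cyp4a12a and Cyp4a12b in those labelled DKO and in Cebpa-KO.

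Cyp4a10 hydroxylates fatty acids at the omega end. Its normalized estimated counts ran from 3950 through a median of 10382 to 18283 in the libraries labelled DKO, and from 7674 through 21852 to 29106 in Cebpa-KO. They ran from 523 through 1222 to 2196 in the libraries labelled Trib1-KO and from 7370 through 11246 to 17678 in WT. Every library labelled Trib1-KO lay below every library of the other 3 groups. The gene fell by 3.29 ± 0.36 log2 units in the libraries labelled Trib1-KO, to 1217 ± 601 against 11187 ± 3681 in WT (SD, n = 6 each; limma adjusted p = 1.55e-07). In Cebpa-KO the difference from WT was 0.87 ± 0.36 log2 units, with 21243 ± 7469 against 11187 ± 3681, and did not pass (limma adjusted p = 0.142). One Cebpa-KO liver, column F3 at 7674, decided this: without it the difference was 1.15 and passed (limma adjusted p = 0.0308). The libraries labelled DKO averaged 10541 ± 5015, a difference of -0.18 ± 0.36 log2 units from WT (limma adjusted p = 0.859) that turned to 0.07 without the liver in column H3.

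Cyp4a14, whose transcript shares little sequence with the others, spread more between livers of a group than any other member in all 4 groups. It ran from 654 through 3482 to 23615 in the libraries labelled DKO and from 1223 through 14403 to 43677 in Cebpa-KO. It ran from 185 through 675 to 1007 in the libraries labelled Trib1-KO and from 2259 through 10930 to 16347 in WT. The highest liver was 36.1 times the lowest in the libraries labelled DKO and 35.7 times in Cebpa-KO, against 5.45 times in the libraries labelled Trib1-KO and 7.24 times in WT. All 6 libraries labelled Trib1-KO lay below all 6 WT libraries, and the gene fell by 3.90 ± 0.78 log2 units (limma adjusted p = 5.11e-04). Neither Cebpa-KO, at 0.64 ± 0.78, nor the libraries labelled DKO, at -0.98 ± 0.78, passed against WT (limma adjusted p = 0.706 and 0.573). The intervals of those differences, at 2 SE, run from -0.92 to 2.19 and from -2.54 to 0.58, so with this spread the gene could differ by several fold in either group without passing.

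Cyp4a31, a close copy of Cyp4a10, also fell in the libraries labelled Trib1-KO. It ran from 274 through 449 to 964 in the libraries labelled DKO and from 375 through 600 to 915 in Cebpa-KO. It ran from 60.0 through 102 to 161 in the libraries labelled Trib1-KO and from 168 through 373 to 1117 in WT. The libraries labelled Trib1-KO again lay below all of the other 18, and the difference from WT was -2.06 ± 0.34 log2 units (limma adjusted p = 7.02e-05). Neither Cebpa-KO, at 0.54 ± 0.34 (limma adjusted p = 0.398), nor DKO, at 0.23 ± 0.34 (limma adjusted p = 0.805), passed against WT, and the value for DKO turned to -0.024 without the WT liver in column A1. Cyp4a32 had means of 1088 ± 407 in the libraries labelled DKO, 1000 ± 118 in Cebpa-KO, 832 ± 231 in those labelled Trib1-KO and 1115 ± 228 in WT, and was called in none of the comparisons. Its difference in the libraries labelled Trib1-KO was -0.45 ± 0.20 log2 units (limma adjusted p = 0.115). Of the words in its transcript 51.2% are shared with Cyp4a10, so a low level in this gene is hard to separate from that of its neighbours.

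The sum of the trio Cyp4a10, Cyp4a31 and Cyp4a32, which does not depend on how reads were split among them, fell as Cyp4a10 did. It averaged 12149 ± 5367 in the libraries labelled DKO, 22862 ± 7557 in Cebpa-KO, 2151 ± 840 in those labelled Trib1-KO and 12788 ± 4147 in WT. The libraries labelled Trib1-KO differed from WT by -2.61 log2 units with no overlap (exact permutation test, 2-sided, adjusted p = 0.00487 over 18 comparisons of sums, from the smallest p of 0.00216 that 6 against 6 livers allow). Cebpa-KO differed from WT by 0.80 (exact permutation test, adjusted p = 0.0552), which became 1.04 and passed without the liver in column F3, and 0.95 and passed without the WT liver in column B3 (adjusted p = 0.00708 without F3). DKO differed from WT by -0.14 (exact permutation test, adjusted p = 0.79).

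Cyp4a12a and Cyp4a12b moved differently from the genes beside them. Cyp4a12a ran from 2043 through 3892 to 4635 in the libraries labelled DKO and from 1643 through 3154 to 4860 in Cebpa-KO. It ran from 11302 through 12685 to 15233 in the libraries labelled Trib1-KO and from 8668 through 9661 to 12443 in WT. All 12 libraries of DKO and Cebpa-KO thus lay below all 12 of the other groups. Cyp4a12a fell by 1.74 ± 0.21 log2 units in Cebpa-KO (limma adjusted p = 3.61e-06) and by 1.61 ± 0.21 in the libraries labelled DKO (limma adjusted p = 2.03e-05). Cyp4a12b averaged 973 ± 457 in the libraries labelled DKO, 920 ± 257 in Cebpa-KO, 4206 ± 684 in those labelled Trib1-KO and 3652 ± 559 in WT. It fell by 2.02 ± 0.24 in Cebpa-KO (limma adjusted p = 2.16e-06) and by 2.04 ± 0.24 in the libraries labelled DKO (limma adjusted p = 3.49e-06), without overlap in either case.

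Neither gene of the pair passed the test in the libraries labelled Trib1-KO against WT, with 0.33 ± 0.21 log2 units for Cyp4a12a and 0.20 ± 0.24 for Cyp4a12b (limma adjusted p = 0.304 and 0.623). Over 10 alternative settings the Cyp4a12a difference ran from 0.33 to 0.57 (limma adjusted p from 0.0359 to 0.406), so its call depended on the setting. The Cyp4a12b difference ran from 0.20 to 0.44 and passed in none (limma adjusted p from 0.201 to 0.681). The sum of the pair was 0.30 log2 units higher in the libraries labelled Trib1-KO, at 16951 ± 1844 against 13843 ± 1875 in WT (exact permutation test, 2-sided, adjusted p = 0.039), with overlap between the groups and no pass when any one of 8 livers (WT A2, A3, B2 and B3; labelled Trib1-KO C2, C3, D1 and D2) was left out (adjusted p up to 0.0744). In DKO and Cebpa-KO the sum averaged 4440.3 ± 1471 and 4125 ± 1101, which differed from WT by -1.71 and -1.78 log2 units (exact permutation test, adjusted p = 0.00487 for each). The libraries labelled DKO and Cebpa-KO differed by 0.08 log2 units in this sum (exact permutation test, adjusted p = 0.79).

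**Figure D2:**
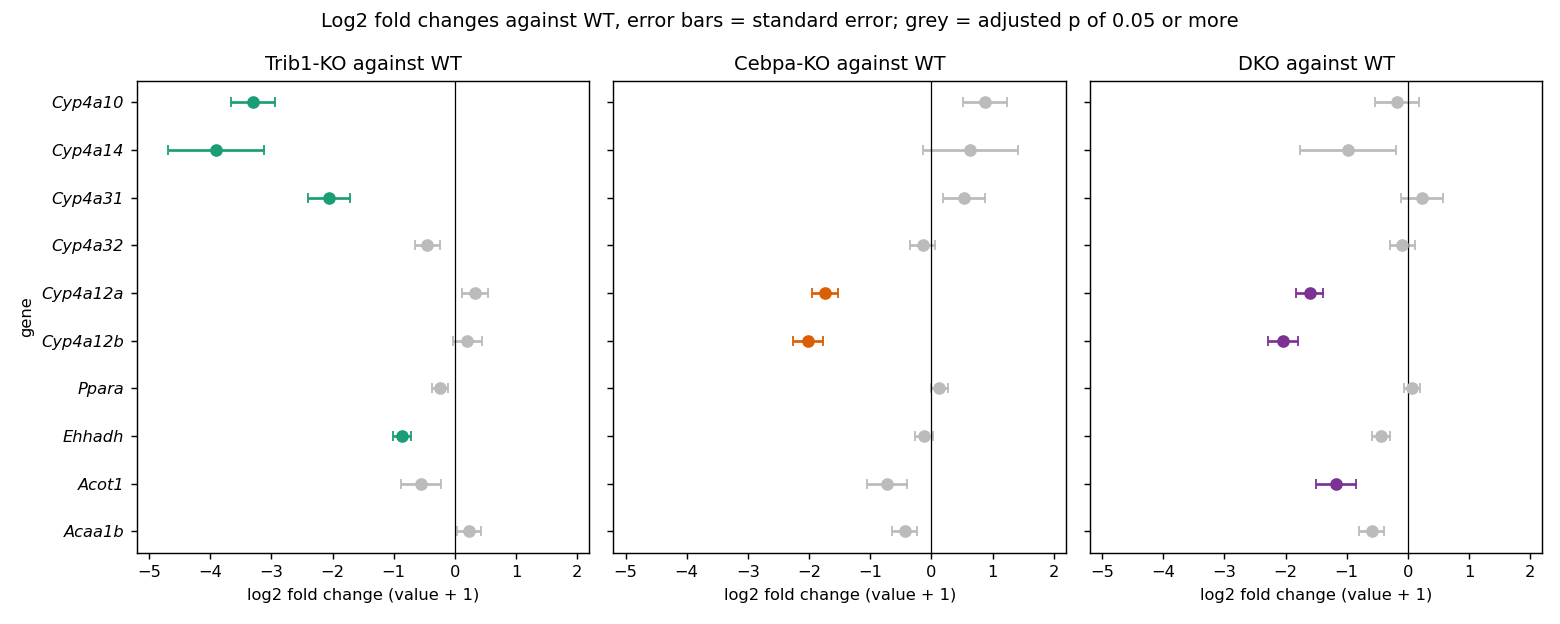
Log2 fold changes of the 10 genes against WT in the libraries labelled Trib1-KO, in Cebpa-KO and in the libraries labelled DKO, on the log2(value + 1) scale, with bars of 1 SE and grey for an adjusted p of 0.05 or more. Coloured points lie at -3.29, -3.90, -2.06 and -0.87 in the first panel and at -1.74 and -2.02 in the second.

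The make-up of the Cyp4a transcripts is described per kilobase of transcript, without a test, as a view chosen after the values were seen. The pair Cyp4a12a and Cyp4a12b made up 21.1 ± 9.70% of the summed values per kilobase of the 6 genes in the libraries labelled DKO, 10.3 ± 6.39% in Cebpa-KO, 83.4 ± 5.62% in those labelled Trib1-KO and 38.0 ± 11.5% in WT (SD, n = 6 each). Its lowest share in a library labelled Trib1-KO was 75.7% and its highest in WT was 54.3%. Cyp4a10 made up 47.1 ± 4.34% in the libraries labelled DKO, 51.7 ± 7.42% in Cebpa-KO, 6.74 ± 2.94% in those labelled Trib1-KO and 32.9 ± 4.13% in WT. Cyp4a14 made up 21.4 ± 15.3% in the libraries labelled DKO, 32.2 ± 15.2% in Cebpa-KO, 2.91 ± 1.32% in those labelled Trib1-KO and 23.2 ± 9.94% in WT. The summed normalized estimated counts of all 6 genes were 24101 ± 13348 in the libraries labelled DKO, 46437 ± 22961 in Cebpa-KO, 19731 ± 2191 in those labelled Trib1-KO and 36532 ± 8539 in WT. The libraries labelled Trib1-KO differed from WT by -0.86 log2 units, without overlap (exact permutation test, 2-sided, adjusted p = 0.00487). They differed from Cebpa-KO by -1.06 (exact permutation test, adjusted p = 0.0303), which did not pass with the Mup-free scaling or when any one of 11 of the 12 livers compared, all but F3, was left out (adjusted p up to 0.0701). The differences of the libraries labelled DKO did not pass, at -0.75 from WT and -0.95 from Cebpa-KO (exact permutation test, adjusted p = 0.0809 and 0.103), but passed against both without H2, and against Cebpa-KO without F3.

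**Figure D3:**
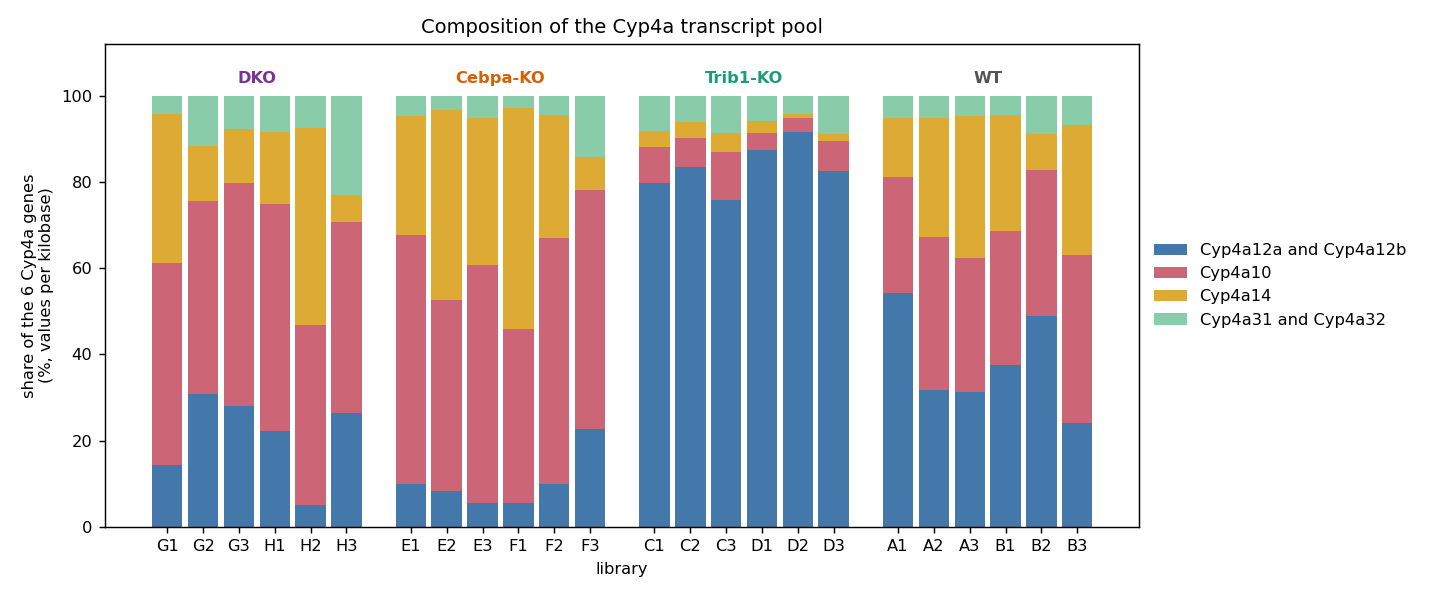
Share of the summed values per kilobase of the 6 Cyp4a genes (%, stacked bars) in each of 24 livers, by library and group. The Cyp4a12a and Cyp4a12b pair takes 75.7 to 91.7% in the libraries labelled Trib1-KO and 24.2 to 54.3% in WT.

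Ppara, the receptor gene, averaged 3995 ± 497 normalized estimated counts in the libraries labelled DKO, 4193 ± 686 in Cebpa-KO, 3256 ± 624 in those labelled Trib1-KO and 3834 ± 641 in WT. The 4 groups overlapped, and no difference from WT passed the test. In the libraries labelled Trib1-KO it was -0.24 ± 0.13 log2 units (limma adjusted p = 0.222), which became 0.0044 with the Mup-free scaling, and its interval at 2 SE ran from -0.51 to 0.03. In Cebpa-KO it was 0.13 ± 0.13 and in the libraries labelled DKO 0.07 ± 0.13 (limma adjusted p = 0.638 and 0.856). Between the libraries labelled Trib1-KO and Cebpa-KO the difference was -0.37 ± 0.13 and was called (limma adjusted p = 0.0349), but not when any one of 7 livers (C2, C3, D2, E2, E3, F1 or F2) was left out, and it became -0.08 with the Mup-free scaling (limma adjusted p = 0.674).

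Rxra, the retinoid X receptor that pairs with PPARα, averaged 11955 ± 636 in the libraries labelled DKO, 10919 ± 1167 in Cebpa-KO, 9083 ± 888 in those labelled Trib1-KO and 11287 ± 1229 in WT. It fell by 0.31 ± 0.08 log2 units in the libraries labelled Trib1-KO (limma adjusted p = 0.00655), with overlap, and did not pass with quantile normalization, at -0.12, or with the Mup-free scaling, at -0.07 (limma adjusted p = 0.411 and 0.631). Of 16 receptor partners and cofactors 2 rose and 3 fell in those libraries against WT, beside 11.8% of all genes higher and 10.9% lower. In Cebpa-KO 1 rose and none fell, beside 4.6% of all genes higher and 5.22% lower. Limma called none in the libraries labelled DKO, beside 6.09% of all genes in either direction, and 2 had an unadjusted p under 0.05. With the Mup-free scaling 5 rose and 1 fell in the libraries labelled Trib1-KO, beside 26.1% of all genes higher and 4.97% lower. Pparg, the receptor best known from fat cells, rose to 386 against 212 in WT (0.90 ± 0.26 log2 units, limma adjusted p = 0.0121), and Ppard, another receptor of the family, rose to 244 against 165 in WT (0.57, limma adjusted p = 0.00717). Ppargc1b, a coactivator of the PGC-1 family, fell to 117 in the libraries labelled Trib1-KO against 274 in WT (-1.22, limma adjusted p = 2.93e-06) and rose to 398 in Cebpa-KO against the same 274 (0.54, limma adjusted p = 0.0314).

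Among the enzyme genes, Ehhadh fell in the libraries labelled Trib1-KO, Acot1 fell in those labelled DKO, and Acaa1b passed in no group against WT. Ehhadh, the bifunctional enzyme of peroxisomal β-oxidation, ran from 5291 through 7641 to 8715 in the libraries labelled DKO and from 6237 through 9806 to 11454 in Cebpa-KO. It ran from 4363 through 5674 to 6471 in the libraries labelled Trib1-KO and from 8160 through 9632 to 14814 in WT. Of the 3 groups only the libraries labelled Trib1-KO lay wholly below WT, with a difference of -0.87 ± 0.15 log2 units (limma adjusted p = 8.54e-05). The libraries labelled DKO were -0.44 ± 0.15 from WT, which did not pass (limma adjusted p = 0.0806), and Cebpa-KO was -0.12 ± 0.15 (limma adjusted p = 0.698).

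Acot1 had its lowest mean in the libraries labelled DKO. It ran from 177 through 447 to 822 in the libraries labelled DKO and from 243 through 670 to 1090 in Cebpa-KO. It ran from 484 through 727 to 967 in the libraries labelled Trib1-KO and from 740 through 1021 to 1385 in WT. It fell by 1.17 ± 0.32 log2 units in the libraries labelled DKO against WT (limma adjusted p = 0.0298), with overlap between the groups, and did not pass when any one of 7 livers (WT A2, B1 and B3; labelled DKO G1, G2, G3 and H3) was left out (adjusted p up to 0.0772). The differences in Cebpa-KO, at -0.73 ± 0.32, and in the libraries labelled Trib1-KO, at -0.56 ± 0.32, did not pass (limma adjusted p = 0.182 and 0.246).

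Acaa1b, a peroxisomal thiolase of the last step of β-oxidation, averaged 17289.6 ± 5519 in the libraries labelled DKO, 18903 ± 4899 in Cebpa-KO, 29311 ± 4474 in those labelled Trib1-KO and 25133 ± 4915 in WT. The differences from WT were -0.59 ± 0.20 log2 units in the libraries labelled DKO (limma adjusted p = 0.0939), -0.43 ± 0.20 in Cebpa-KO (limma adjusted p = 0.209) and 0.23 ± 0.20 in the libraries labelled Trib1-KO (limma adjusted p = 0.479). The libraries labelled DKO differed from those labelled Trib1-KO by -0.82 ± 0.20, without overlap (limma adjusted p = 0.00291).

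The comparison of the libraries labelled DKO with those labelled Trib1-KO asks what Cebpa loss does where Trib1 is floxed. Cyp4a10 was higher by 3.11 ± 0.36 log2 units (limma adjusted p = 1.92e-07) and Cyp4a31 by 2.29 ± 0.34 (limma adjusted p = 1.03e-05), both without overlap. Cyp4a14 was higher by 2.92 ± 0.78 (limma adjusted p = 0.00518), although the lowest liver labelled DKO, at 654, lay below the highest labelled Trib1-KO, at 1007. Ehhadh was higher by 0.43 ± 0.15 (limma adjusted p = 0.0303), which became 0.14 and did not pass with the Mup-free scaling (limma adjusted p = 0.478), nor with any one of C1, D2, G1, H1 or H2 left out. Cyp4a12a and Cyp4a12b were lower, at -1.94 ± 0.21 and -2.24 ± 0.24 (limma adjusted p = 8.52e-08 and 5.19e-08), and Acot1 was -0.61 ± 0.32 (limma adjusted p = 0.167) and -0.90 with the Mup-free scaling, where it passed (limma adjusted p = 0.031). In the direct comparison of the groups with 1 floxed gene, the libraries labelled Trib1-KO differed from Cebpa-KO by -4.17 ± 0.36 for Cyp4a10, -4.54 ± 0.78 for Cyp4a14, -2.59 ± 0.34 for Cyp4a31 and -0.74 ± 0.15 for Ehhadh, and by 2.07 ± 0.21 for Cyp4a12a, 2.22 ± 0.24 for Cyp4a12b and 0.66 ± 0.20 for Acaa1b (limma adjusted p from 1.2e-09 for Cyp4a10 to 0.0133 for Acaa1b).

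The interaction tests whether the effect of a floxed Trib1 differs with and without Cebpa, as the difference of the libraries labelled DKO from Cebpa-KO minus that of the libraries labelled Trib1-KO from WT. It passed for 2 of the 10 members, both positive, where 12.6% of genes were called, 6.35% positive and 6.22% negative. For Cyp4a10 it was 2.24 ± 0.51 log2 units (limma adjusted p = 0.00365), from a difference of -1.06 ± 0.36 between the libraries labelled DKO and Cebpa-KO and one of -3.29 ± 0.36 between those labelled Trib1-KO and WT. For Cyp4a31 it was 1.75 ± 0.49 (limma adjusted p = 0.017). For Cyp4a14 it was 2.29 ± 1.10 and did not pass (limma adjusted p = 0.199), and for Cyp4a12a and Cyp4a12b it was -0.20 ± 0.30 and -0.22 ± 0.34 (limma adjusted p = 0.755 and 0.753). None of the 10 members was called between the libraries labelled DKO and Cebpa-KO by limma, though 3 had an unadjusted p under 0.05, namely Cyp4a10 at -1.06, Cyp4a14 at -1.62 and Ehhadh at -0.32 log2 units. The sum of the trio differed between these groups by -0.94 (exact permutation test, 2-sided, adjusted p = 0.0531), and by -1.18 without F3 and -0.98 without F3 and H3, where it passed (adjusted p = 0.00708 and 0.013), as it did without H2.

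Livers of the same group differed in several of these genes at once. In Cebpa-KO, the liver in column F3 held the lowest value of 6 of the 10 members, and in the libraries labelled DKO the liver in column H3 held the lowest value of 6. Sums of cholangiocyte markers were the highest of their groups in both livers, at 6084 in H3 and 8513 in F3, and so were those of neutrophil markers, at 448 in H3 and 366 in F3. The Kupffer cell and macrophage sum was the highest of its group in F3, at 16884, and not in H3, and the hepatocyte sum was the highest of its group in H3, at 3332580, and the lowest in F3, at 2743040. The part of these cells was not tested. With each group's mean removed, Cyp4a14 was set against the other 9 members over the 24 livers, with permutation within groups; Cyp4a14 was chosen for this after its spread had been seen. Cyp4a10 followed it closely, with Pearson's r = 0.903 and Spearman's rho = 0.911 (permutation test, adjusted p = 9e-05 for each over 9 relations, from the smallest p that 100000 permutations can give). Without F3 and H3, the 2 livers farthest from the median, r was 0.834, and within groups it was 0.969 in the libraries labelled DKO, 0.988 in Cebpa-KO, 0.834 in those labelled Trib1-KO and 0.85 in WT. Acot1 also followed Cyp4a14, with r = 0.839 and rho = 0.75 (permutation test, adjusted p = 1.8e-04 and 0.00104), and r = 0.693 without those livers.

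For Ehhadh r was 0.647 and rho 0.543 (permutation test, adjusted p = 0.0072 and 0.0306), but r was 0.379 without F3 and H3. With group means taken anew without them, a test added after the data were seen, it was 0.327 and did not pass (permutation test, adjusted p = 0.236 over 9 relations), although r was 0.695 within the 6 libraries labelled Trib1-KO, which hold neither. For Acaa1b r was 0.505 and rho 0.331 (permutation test, adjusted p = 0.0832 and 0.246), and r was 0.0986 without F3 and H3. Cyp4a31 had r = 0.415, or 0.377 without them (permutation test over all livers, adjusted p = 0.0832), and Ppara r = 0.174, or 0.0757 without them (adjusted p = 0.537 over all livers, permutation test). The remaining 3 did not pass either, with r = 0.152 for Cyp4a12a, -0.203 for Cyp4a12b and 0.171 for Cyp4a32, and without F3 and H3 r was -0.114 for Cyp4a12a, -0.522 for Cyp4a12b and 0.448 for Cyp4a32. The letters and numbers of the columns are not explained in the labels. Among the libraries labelled Trib1-KO, Cyp4a10 was 1388, 1433 and 2196 in the columns with the letter C and 702, 523 and 1057 in those with D. This gene and group were chosen after the values were seen. In WT Cyp4a10 was 7370 to 11650 with the letter A and 7931 to 17678 with B, and the letters overlapped in Cebpa-KO and DKO too. The letter was not modelled.

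**Figure D4:**
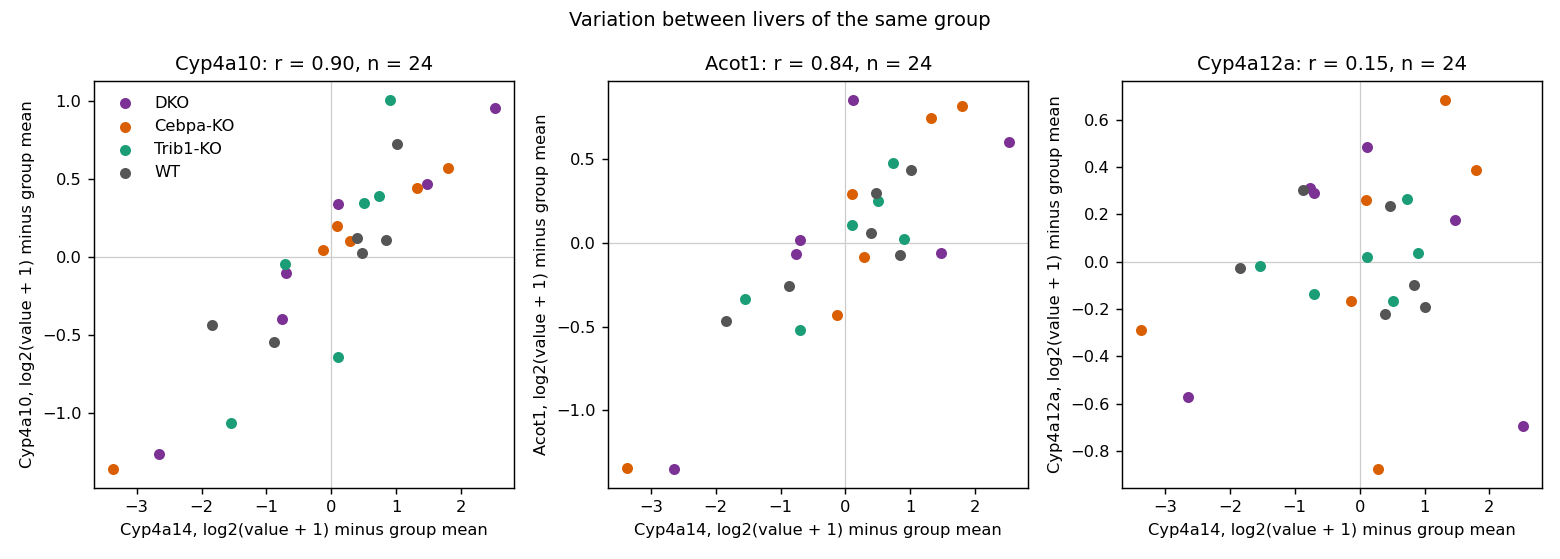
Log2(value + 1) of Cyp4a10, Acot1 and Cyp4a12a in 24 livers, each minus its group's mean, against that of Cyp4a14, with 1 point per liver and colour by group. The r of 0.903 for Cyp4a10 and 0.839 for Acot1 stand beside 0.152 for Cyp4a12a.

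A list of 50 other PPARα target genes, all of them measured, did not move one way in the libraries labelled Trib1-KO. There 14 rose, 18 fell and 18 did not pass against WT, where 11.8% of all genes were called higher and 10.9% lower. The median was -0.09 log2 units beside 0.01 over all genes, and the 14 include Acot5, which passed the filter only through those libraries. With the Mup-free scaling 21 rose and 7 fell, where 26.1% of all genes were called higher and 4.97% lower, and Acadvl and Hadhb, which fell before, stood at 0.08 and 0.0032. With quantile normalization 15 rose and 9 fell, where 11% of all genes were called higher and 12.2% lower. Among those that rose, Abcd2, a peroxisomal transporter of very long chain acyl-CoA, averaged 2102 against 328 in WT (2.90 ± 0.49 log2 units, limma adjusted p = 7.89e-05). The secreted hormone gene Fgf21 stood at 151 against 32.4 (2.30 ± 0.41, limma adjusted p = 1.47e-04), and Pdk4, the kinase that restrains pyruvate dehydrogenase, at 933 against 261 (1.89 ± 0.40, limma adjusted p = 9.12e-04). Abcd2, Fgf21 and Pdk4 had no overlap between the groups. Acot3, a peroxisomal thioesterase, stood at 483 against 52.2 with overlap (3.21 ± 0.71, limma adjusted p = 0.00137).

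Among those that fell, Retsat, retinol saturase, averaged 4439 in those libraries against 11606 in WT (-1.39 ± 0.15 log2 units, limma adjusted p = 8.17e-08). Crot, which moves shortened acyl groups from peroxisomes to carnitine, stood at 10189 against 18236 (-0.83 ± 0.12, limma adjusted p = 1.44e-05). Creb3l3, a liver transcription factor of fasting, stood at 4775 against 7991 (-0.74 ± 0.06, limma adjusted p = 3.06e-10). In these 3 genes all 6 libraries labelled Trib1-KO lay below all 6 of WT, and the 3 falls passed with either other scaling.

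In Cebpa-KO 3 of the 50 rose and 11 fell against WT, with a median of -0.05 log2 units, where 4.6% of all genes were called higher and 5.22% lower. With the Mup-free scaling 1 rose and 12 fell, where 3.4% of all genes were called higher and 6.08% lower. The medium-chain dehydrogenase gene Acadm rose to 10639 against 8637 in WT (0.30 ± 0.09, limma adjusted p = 0.0333) and the thioesterase gene Acot4 to 2020 against 882 (1.07 ± 0.34, limma adjusted p = 0.0474). Acadm and Acot4 did not pass with the Mup-free scaling (limma adjusted p = 0.0649 for Acadm and 0.0603 for Acot4). Abcd2 fell to 77.5 against 328 in WT (-2.36 ± 0.49), Fgf21 to 8.40 against 32.4 (-1.79 ± 0.41), the carnitine acetyltransferase gene Crat to 748 against 1542 (-1.09 ± 0.23) and the peroxisome division gene Pex11a to 1665 against 3157 (-0.93 ± 0.18), with limma adjusted p from 0.00124 for Pex11a to 0.0048 for Fgf21.

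Of the 50, none rose and 7 fell in the libraries labelled DKO against WT, with a median of -0.11 log2 units. Over all genes 2.84% were called higher and 3.25% lower. Quantile normalization gave 1 that rose and 7 that fell, where 2.95% of all genes were called higher and 3.12% lower. A fit of these groups alone called 3 of the 50, and without WT A2 or DKO G3 the count was 3 and 4. Abcd2 fell to 23.3 against 328 in WT (-3.65 ± 0.49, limma adjusted p = 2.36e-05), without overlap. Cpt1b, the muscle form of carnitine palmitoyltransferase, fell to 40.8 against 104 (-1.51 ± 0.39, limma adjusted p = 0.0193), Fgf21 to 12.8 against 32.4 (-1.47 ± 0.41, limma adjusted p = 0.0311) and Crat to 953 against 1542 (-0.78 ± 0.23, limma adjusted p = 0.0472). None of the 50 was called between the libraries labelled DKO and Cebpa-KO by limma, where 0.202% of all genes were called, and 13 had an unadjusted p under 0.05. Against those labelled Trib1-KO, the libraries labelled DKO had 15 higher and 16 lower, where 14.6% of all genes were called higher and 15.7% lower. With the Mup-free scaling 7 were higher and 27 lower, where 7.31% of all genes were called higher and 32.0% lower. Cpt2, Hsd17b4 and Slc25a42 were among those that turned sign. The libraries labelled Trib1-KO had 17 higher and 16 lower than Cebpa-KO, where 16.9% of all genes were called higher and 15.8% lower. With the Mup-free scaling 25 were higher and 8 lower, where 32.6% of all genes were called higher and 7.62% lower. Acadvl, Slc25a20 and Decr1 turned sign there. The interaction was positive in 9 and negative in 13, where 6.35% of all genes were positive and 6.22% negative. With the Mup-free scaling it was positive in 4 and negative in 15, where 3.15% of all genes were positive and 14.5% negative. Among those called were Abcd2, at -4.19 ± 0.69 log2 units, and Crot, at 1.05 ± 0.17 (limma adjusted p = 1.4e-04 and 1.38e-04). Both were named for their changes against WT.

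**Figure D5:**
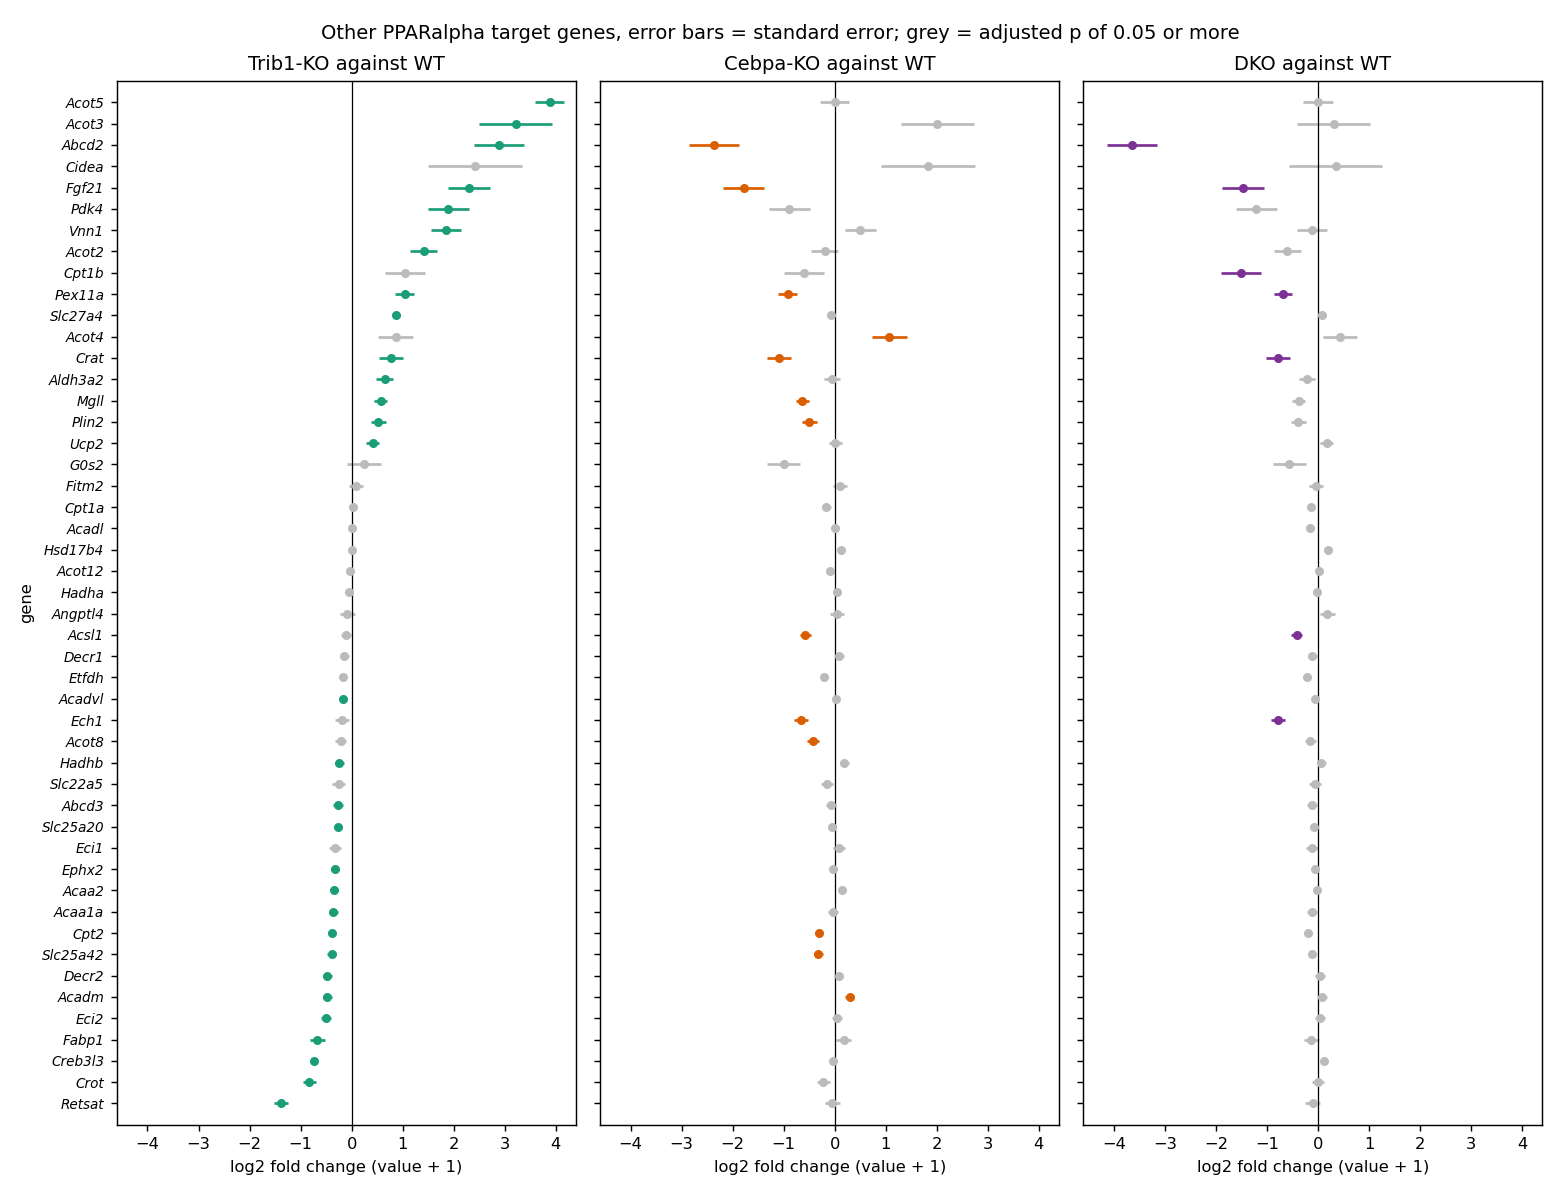
Log2 fold changes of 48 of the 50 other PPARα target genes against WT in the libraries labelled Trib1-KO, in Cebpa-KO and in the libraries labelled DKO, on the log2(value + 1) scale, ordered by the first panel, with bars of 1 SE and grey for an adjusted p of 0.05 or more. In the first panel 14 coloured points lie above 0 and 16 below, in the second 2 and 11, in the third none and 7.

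Acot1 sits in a cluster of thioesterase genes. Of the 6 cluster genes on the list 4 rose and none fell in the libraries labelled Trib1-KO against WT, beside 11.8% of all genes higher and 10.9% lower. Acot5 passed the filter on low values only through those libraries and so had to differ. In the other groups 1, Acot4, rose in Cebpa-KO (not with either other scaling), beside 4.6% of all genes higher. In the libraries labelled DKO 1, Acot1, fell, beside 3.25% of all genes lower. Of the 6, Acot2, Acot3, Acot4 and Acot5 are also among the other PPARα targets and are counted there too. Acot6 rose to 74.5 in the libraries labelled Trib1-KO against 23.3 in WT (1.65 ± 0.18 log2 units, limma adjusted p = 1.22e-07), without overlap. Acot2, chosen after its values were seen because it shares sequence with Acot1, rose to 277 against 104 (1.41 ± 0.27, limma adjusted p = 2.71e-04), while Acot1 in the same libraries was -0.56 ± 0.32. Acot5, also chosen after its values were seen, was listed at 0 in every library outside those labelled Trib1-KO and averaged 15.5 in these. The interaction was -1.58 ± 0.25 for Acot6 and -1.82 ± 0.38 for Acot2 (limma adjusted p = 8.22e-05 and 0.00158).

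Of 14 other Cyp4 genes 10 were measured. In the libraries labelled Trib1-KO 2 of the 10 rose and 3 fell against WT, beside 11.8% of all genes higher and 10.9% lower. With the Mup-free scaling 4 rose and 3 fell, beside 26.1% of all genes higher and 4.97% lower. Cyp4f14, a hydroxylase of leukotrienes and vitamin K in mouse liver, fell to 1583 against 4051 in WT (-1.36 ± 0.12 log2 units, limma adjusted p = 3.68e-09), and its neighbour in name Cyp4f15 fell to 1757 against 3895 (-1.14, limma adjusted p = 4.04e-09). Cyp4f18, known from myeloid cells, was low and rose to 38.5 ± 18.4 against 12.5 ± 5.51 (SD, n = 6 each; 1.57, limma adjusted p = 0.00405). Macrophage markers were also higher in those libraries, and a relation between these changes was not tested. In Cebpa-KO 1 rose and 3 fell, beside 4.6% of all genes higher and 5.22% lower. Among them were Cyp4f14 at 5848 against 4051 in WT (0.51), Cyp4f17 at 281 against 518 (-0.85) and Cyp4v3 at 7419 against 9385 (-0.33). The last did not pass with quantile normalization (limma adjusted p = 0.0845). In the libraries labelled DKO only Cyp4f17 of the 10 was called, at 309 against 518 in WT (-0.73), beside 6.09% of all genes called. Of 16 peroxisome biogenesis genes 1 rose and 1 fell in the libraries labelled Trib1-KO against WT, beside 11.8% of all genes higher and 10.9% lower. With the Mup-free scaling 6 rose and none fell there, beside 26.1% of all genes higher and 4.97% lower. In Cebpa-KO 1 rose and 2 fell, beside 4.6% of all genes higher and 5.22% lower. In the libraries labelled DKO 2 fell, beside 3.25% of all genes lower. Pex11a is on this list and also among the other PPARα targets, so it is counted in both.

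The genes whose levels were most like those of 3 members over the 24 libraries were picked by Pearson's r of log2 values among 12565 genes, as a description. For Cyp4a10 these were the retinol dehydrogenase gene Rdh7 (r = 0.949), the glutathione transferase gene Gsta3 (0.941), the caspase gene Casp6 (0.936) and Nr1i3, which encodes the nuclear receptor CAR (0.935). For Cyp4a12a they were the glutamate receptor gene Grm8 (r = 0.916), Mmd (0.908), Paqr9 (0.907) and the histone methyltransferase gene Dot1l (0.899). Grm8 averaged 1.02 in the libraries labelled DKO and 0.254 in Cebpa-KO, close to 0, beside 167 in those labelled Trib1-KO and 51.0 in WT. Group means were not removed for these r, so they include the differences between groups. For Ppara the closest were Anxa7 (r = 0.793), Pts (0.76), Mast3 (0.743) and Snx8 (0.737), with lower r than the genes most like the other 2 members. Nr1i3 averaged 5740 in the libraries labelled DKO, 7184 in Cebpa-KO, 2076 in those labelled Trib1-KO and 5477 in WT.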

How the data were processed

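Stranded mRNA libraries from whole liver were sequenced, 1 per mouse. Per the submitters' processing notes, Salmon and DESeq2 were used with the GRCm38.p6 build, without versions, and the deposited signal values are the authors' estimated counts divided by size factors. Within a library 66.0 to 71.2% of low values were whole multiples of its smallest step within 0.02, so whole reads were not recovered and no count model was used. Steps of 0.686 to 1.46 put the depth near 18640000 to 34290000 reads per library. Columns were matched to groups by name, and they carry no mouse or cohort, so cohorts were not modelled. The p-values set differences between groups against the spread between these libraries, which includes any difference between cohorts.

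A model of the 4 group means over 24 libraries was fitted to log2(value + 1) for 19810 genes in R 4.3.3, using limma 3.58.1 with its prior variance following mean intensity and Benjamini-Hochberg adjustment over all genes tested. The script was tested on simulated data. Sums were compared by exact permutation over 924 arrangements, and the 9 relations by permutation within groups. Alternatives were pseudocounts of 0.1 and 10, other filters, quantile normalization, scaling without Mup genes, no trend, array weights, the column number as a block, a fit of the compared groups alone and leaving out each library. Gene positions and coding sequences came from GENCODE M21, identities from pairwise alignment with MAFFT 7.526, and promoters from RefSeq.

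The members and gene lists were chosen with earlier results of these data known. Beyond the 10 members, Rxra, Trib1 and Cebpa, the genes named are the largest called changes with a mean of at least 10 against WT, up to 4 each way from the other PPARα targets and 2 each way from the Cyp4, cofactor and Acot lists, and the 4 genes most like Cyp4a10, Cyp4a12a and Ppara. Some genes of these lists are counted but not reported here by name. Genes named only because a scaling turned their sign were chosen after their values were seen.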

Additional observations from a re-analysis of the deposited data

Results flagged for a closer look

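In groups of 6 livers, 3 values stood apart from the others by Dixon's test on the log2(value + 1) scale, of 40 groups of member values tested, where chance flags about 1 in 20 groups. In Cebpa-KO, the liver in column F3 had 7674 normalized estimated counts of Cyp4a10 and 1223 of Cyp4a14, each the lowest of its group, with gaps to the next liver of 0.727 and 0.626 of the group's range on the log2 scale. On untransformed values, tried after the data were seen, the gaps were 0.586 for Cyp4a10 and 0.242 for Cyp4a14, which do not stand apart by that test. In the libraries labelled DKO, the liver in column H3 had 5291 of Ehhadh, with a gap of 0.686 of the range on the log2 scale and 0.631 on untransformed values. The effect of a floxed Trib1 differed with and without Cebpa for Cyp4a10, by 2.24 log2 units (limma adjusted p = 0.00365), and for Cyp4a31, by 1.75 log2 units (limma adjusted p = 0.017).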

How the results depend on the processing

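Of 690 fold changes of members under the planned settings, 674 kept direction and call, 7 lost the call, 4 gained it and 5 turned sign, and of 960 with 1 library left out the numbers were 919, 19, 3 and 19. The cause of these changes was not tested. No paired analysis was possible because the columns carry no mouse; with the column number as a replicate block no count of called genes among the members or the other PPARα targets moved by over 1.5 times, and 1 of 19810 genes was called for that number. With the Mup-free scaling Ppara in Trib1-KO against WT was 0.0044, the interaction was -0.061 for Ppara and -0.13 for Acot1, and the sum of all 6 Cyp4a genes was -0.17 for DKO against Trib1-KO and -0.77 for Trib1-KO against Cebpa-KO, which no longer passed. With array weights DKO against Cebpa-KO was 0.12 for Cyp4a12b and -0.010 for Cyp4a32. With quantile normalization the sum of Cyp4a10, Cyp4a31 and Cyp4a32 was -0.95 for DKO against Cebpa-KO (exact permutation test, adjusted p = 0.046), and a fit of the compared groups alone called 3 other PPARα targets in DKO against WT.

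With F3 and H3 both left out, chosen after the data were seen, Cyp4a10 in DKO against WT was 0.070, Cyp4a12b was 0.24 in DKO against Cebpa-KO and 0.036 in the interaction, and Acot1 was -0.10 in Trib1-KO against Cebpa-KO. The sum of Cyp4a10, Cyp4a31 and Cyp4a32 was then 1.04 in Cebpa-KO and 0.062 in DKO against WT, and -0.98 in DKO against Cebpa-KO. The Cyp4a sum, DKO against Cebpa-KO, over all 6 genes was -1.004 (exact permutation test, adjusted p = 0.044).

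With 1 library left out, the other PPARα targets called in DKO against WT were 3 to 8. In DKO against WT, Cyp4a10 ranged from -0.37 to 0.070, Cyp4a31 from -0.024 to 0.52, Cyp4a32 from -0.25 to 0.031 and Ppara from -0.024 to 0.11. In DKO against Cebpa-KO, Cyp4a12a ranged from -0.044 to 0.27, Cyp4a12b from -0.19 to 0.17, Cyp4a32 from -0.11 to 0.17, Ppara from -0.14 to 0.0022 and Acaa1b from -0.30 to 0.010. Acot1 ranged from -0.16 to 0.38 in the interaction and from -0.10 to 0.33 in Trib1-KO against Cebpa-KO. The sum of Cyp4a10, Cyp4a31 and Cyp4a32 ranged from 0.69 to 1.04 in Cebpa-KO against WT, from -0.32 to 0.062 in DKO against WT and from -1.18 to -0.74 in DKO against Cebpa-KO. The sum of Cyp4a12a and Cyp4a12b ranged from 0.25 to 0.36 in Trib1-KO against WT and from -0.071 to 0.22 in DKO against Cebpa-KO. The sum of all 6 ranged from -0.98 to -0.50 in DKO against WT, from -0.12 to 0.36 in DKO against Trib1-KO, from -1.36 to -0.86 in Trib1-KO against Cebpa-KO, where it passed only without F3, and from -1.25 to -0.70 in DKO against Cebpa-KO, where it passed without F3 or H2.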
